A study of Mus musculus with 4 samples.

Results

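The brush border peptidases described here are 9 genes, Anpep, Enpep, Xpnpep2, Dpp4, Mme, Mep1a, Mep1b, Ace and Tmprss15, taken by name from the 29011 genes of the deposited table. All 9 had a row and all 9 passed the filter for low values. The 4 libraries are RNA-seq of whole small intestine from mouse pups at postnatal day 8. The Lats1/2 KO group has 2 libraries, labelled VilCre+; Lats1/2-/-, and the Control group has 2 libraries, labelled VilCre-; Lats1/2-/-. The design text describes the controls as carrying floxed Lats1 and Lats2 with no Cre, so the floxed alleles are taken here as shared by both groups and Cre as what differs. Villin-Cre is active in the intestinal epithelium, and the muscle, vessels, connective tissue and blood cells of the same tissue are outside its reach. Both genes encode kinases of the Hippo pathway, which hold YAP and TAZ, co-activators of transcription, out of the nucleus. The question put to the data is what peptidase expression looks like in the neonatal intestine of mice with Cre against mice without it.

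Brush border peptidases are enzymes fixed in the apical membrane of enterocytes, with the active site facing the gut lumen. Pancreatic proteases cut dietary protein into short peptides, and the membrane peptidases trim these to amino acids and very short peptides that transporters carry into the cell. Anpep, Enpep and Xpnpep2 remove residues from the N-terminal end of a peptide, Dpp4 removes dipeptides from that end, Ace removes dipeptides from the C-terminal end, and Mme and the meprins Mep1a and Mep1b cut inside the chain. Tmprss15, enteropeptidase, stands apart because its substrate is trypsinogen: it makes active trypsin and so starts the pancreatic cascade. The same peptidases act outside the gut as well, on hormones and vasoactive peptides in kidney and blood vessels.

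The sequence before the transcription start is shown for 4 members that span the range of responses described below, namely Xpnpep2 and Enpep, the members with the largest rises, Tmprss15, the member with the largest fall, and Dpp4, which did not pass the test. Each line gives the 250 bases before the RefSeq start site of build GRCm38.p6, read 5′ to 3′ in the direction of the gene, at chrX:48108475-48108724 on the plus strand for Xpnpep2, and on the minus strand at chr3:129332750-129332999 for Enpep, chr16:79091098-79091347 for Tmprss15 and chr2:62412232-62412481 for Dpp4. Capitals mark matches to 6 motifs searched on both strands.
Xpnpep2: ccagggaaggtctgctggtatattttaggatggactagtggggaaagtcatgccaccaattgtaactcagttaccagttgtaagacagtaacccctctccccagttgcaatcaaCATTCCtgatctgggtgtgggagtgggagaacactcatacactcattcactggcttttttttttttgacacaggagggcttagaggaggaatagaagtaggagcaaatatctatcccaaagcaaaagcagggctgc
Enpep: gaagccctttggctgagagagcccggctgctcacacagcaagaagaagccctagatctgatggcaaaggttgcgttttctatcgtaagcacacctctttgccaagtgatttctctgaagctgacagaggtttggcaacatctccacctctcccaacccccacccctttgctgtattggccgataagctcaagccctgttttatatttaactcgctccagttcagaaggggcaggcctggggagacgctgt
Tmprss15: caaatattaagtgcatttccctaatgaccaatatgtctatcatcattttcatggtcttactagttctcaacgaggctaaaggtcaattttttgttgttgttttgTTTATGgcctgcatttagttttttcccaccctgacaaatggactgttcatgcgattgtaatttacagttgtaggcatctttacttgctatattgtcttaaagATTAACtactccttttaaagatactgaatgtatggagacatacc
Dpp4: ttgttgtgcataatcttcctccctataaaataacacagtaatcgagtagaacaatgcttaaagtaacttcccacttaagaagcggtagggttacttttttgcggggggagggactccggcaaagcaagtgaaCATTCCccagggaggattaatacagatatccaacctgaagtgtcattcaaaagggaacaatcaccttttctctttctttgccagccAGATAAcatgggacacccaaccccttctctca
The motifs were GGAATG for the TEAD partners of YAP and TAZ, AGATAA for GATA factors, TTTATG for CDX factors, GTTAAT for HNF1, CAAAGT for HNF4 and TGANTCA for AP-1, and no matches overlapped in the member windows. RefSeq windows were found for 8 of the 9 members, 11 windows in all, with several for Mme and Ace. The bases checked just after the start were not found in an annotated GENCODE transcript for Enpep, 1 window of Mme and 1 of Ace. That Ace window, at chr11:105974939-105975188, lies inside the gene. The TEAD letters stood in 3 of these windows and in 12.6% of all 32851 windows of the same length. One match lay at bases -136 to -131 of Xpnpep2 and another at -118 to -113 of Dpp4, where -1 is the base before the start, and the third was in a window of Mme. Thus a gene that rose, a gene that did not pass the test and a gene that fell each held the letters, and the Enpep and Anpep windows held none of the 6 motifs. The GATA letters were found at -32 to -27 of Dpp4 (9.99% of all windows), and Tmprss15 held the CDX letters at -146 to -141 (10.8%) and the HNF1 letters at -44 to -39 (6.43%). Ace held the HNF4 letters in both of its windows, Mep1a at -29 to -24 and Mme in 1 window (12.6% of all windows). The AP-1 letters were in another window of Mme (6.75% of all windows). A match of letters is a description and does not show binding.

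The deposited values are normalized counts, which are gene counts divided by 1 factor per library. Read totals recovered from them were 30517967 and 32361940 in the Lats1/2 KO libraries and 27811313 and 25135964 in the Control libraries. The columns name the group of a library but not which labelled sample it was, so replicate numbers below are names only. The member with the fewest reads in any library, Enpep, had 513 there, a counting error of 4.42%. That is small beside the 2.46-fold difference between the Enpep controls. Lats1 was 751 and 661 normalized counts in Lats1/2 KO and 2316 and 2560 in Control (adjusted p = 0.00055 by limma), whereas Lats2 was 295 and 254 against 273 and 287 (adjusted p = 0.868), and whole-gene counts do not test the deleted part alone. Control replicate 1 stood apart by sex: its Y-linked Ddx3y was 1906 normalized counts and its Xist 64.2, against at most 5.55 of Ddx3y and at least 17034 of Xist in the other 3 libraries. It was thus the only male by these genes, and calls are also given without it.

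Of the 9 peptidases, 3 rose and 4 fell in the Lats1/2 KO intestine, and 2 did not pass the threshold of an adjusted p under 0.05. Enpep, Xpnpep2 and Anpep rose, and Tmprss15, Mme, Mep1a and Ace fell. The 7 calls of 9 stand against 27.5% of the 16415 tested genes called in either direction, 15.2% higher and 12.3% lower. The groups did not overlap in the same 7 members, against 68.3% of all tested genes. The median log2 change of the 9 was -0.04, beside a median of 0.00 over all tested genes, so the set had no common direction. With the male library left out, all 7 members kept their call and direction, against 22.3% of tested genes called. The edgeR quasi-likelihood test on recovered reads also called these 7 members, with 27.8% of genes called. At an adjusted p under 0.05 in the authors' deposited table, 3 members were higher, 4 lower and 2 neither. These are whole-tissue libraries, in which fewer cells of a type and less RNA per cell cannot be told apart.

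**Figure D1:**
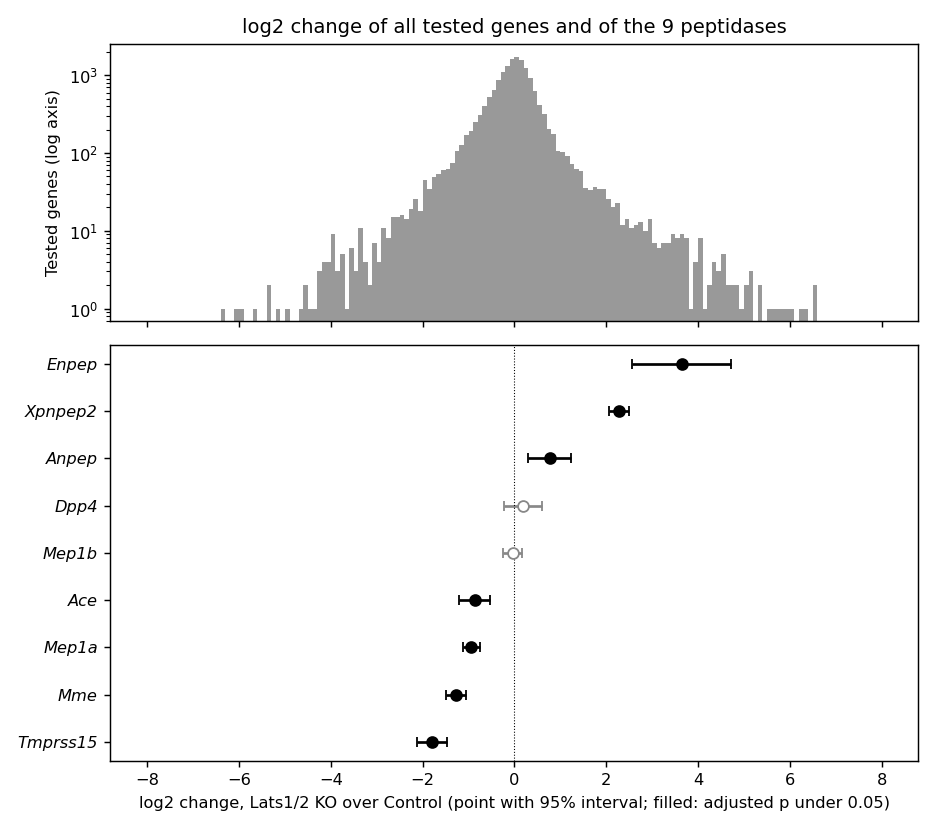
The upper panel counts the 16415 tested genes by log2 change, on a log axis, and the lower panel gives each peptidase as its log2 change, Lats1/2 KO over Control, with a 95% interval, filled where the adjusted p was under 0.05. Enpep at 3.64 and Tmprss15 at -1.80 mark the ends of the set, and the intervals of Dpp4 and Mep1b include 0.

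The N-terminal aminopeptidases were the members that rose. Enpep, glutamyl aminopeptidase, removes acidic residues from peptide ends and converts angiotensin II to angiotensin III (ENSMUSG00000028024, GRCm38 chromosome 3, 129269175 to 129332720, minus strand). Enpep had 14151 and 9299 normalized counts in the Lats1/2 KO libraries and 1440 and 586 in the Control libraries. Both knockouts lay far above both controls, but the controls themselves differed 2.46-fold and the knockouts 1.52-fold, the widest spreads of the 9 genes. Enpep averaged 11725 ± 3431 in Lats1/2 KO and 1013 ± 604 in Control (SD, n = 2 each). Its log2 change by limma, the mean difference of log2 values, was 3.64 ± 0.43 (SE), a 12.5-fold rise on that scale. The 95% interval was 2.56 to 4.72 and the adjusted p 0.00407 by limma. By absolute log2 change Enpep ranked 107 of 16415 tested genes. Its size depended on the control library used, with a log2 change of 4.29 without Control replicate 1, the male, and 2.99 without Control replicate 2. In the authors' deposited table the log2 fold change of Enpep is 3.03.

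Xpnpep2, the membrane-bound aminopeptidase P, releases an N-terminal residue that is followed by proline, a bond most peptidases do not cut (ENSMUSG00000037005, chromosome X, 48108725 to 48136981, plus strand). Xpnpep2 had 3387 and 3137 normalized counts in Lats1/2 KO and 715 and 632 in Control. The replicates were close, within 1.13-fold in either group, and the groups were far apart. Means were 3262 ± 177 in Lats1/2 KO and 674 ± 58.8 in Control (SD, n = 2 each), a log2 change of 2.28 ± 0.09 (SE) and an adjusted p of 0.000231, the smallest of the 9. The gene is X-linked, and the fold change was 5.15 with the female libraries alone, against 4.84 with all 4.

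Anpep, aminopeptidase N, is a major aminopeptidase of the microvillar membrane and acts on neutral residues (ENSMUSG00000039062, chromosome 7, 79821803 to 79861059, minus strand). Anpep had 60537 and 46425 normalized counts in the Lats1/2 KO libraries and 35913 and 27120 in the Control libraries. The lower knockout was above the higher control, though the gap between them was smaller than the difference between the 2 knockouts. Anpep averaged 53481 ± 9978 in Lats1/2 KO and 31516 ± 6217 in Control (SD, n = 2 each), a 1.70-fold rise (log2 change 0.76 ± 0.19 SE, adjusted p = 0.034). Anpep no longer passed when Lats1/2 KO replicate 1 (adjusted p = 0.147), Lats1/2 KO replicate 2 (0.0559) or Control replicate 2 (0.0713) was left out, with no filter on low values (0.0752), or with scaling to epithelial markers (0.108), and it passed without the male control (0.0159).

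Dpp4, dipeptidyl peptidase IV, cuts dipeptides from peptides with proline or alanine next to the N-terminal residue and is best known for inactivating the incretin hormones (ENSMUSG00000035000, chromosome 2, 62330073 to 62412231, minus strand). Dpp4 had 8567 and 6533 normalized counts in Lats1/2 KO and 7369 and 5859 in Control. The groups overlapped, with the lower knockout between the controls. Means were 7550 ± 1439 in Lats1/2 KO and 6614 ± 1068 in Control (SD, n = 2 each). The log2 change was 0.19 with a 95% interval of -0.22 to 0.60 (adjusted p = 0.439).

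**Figure D2:**
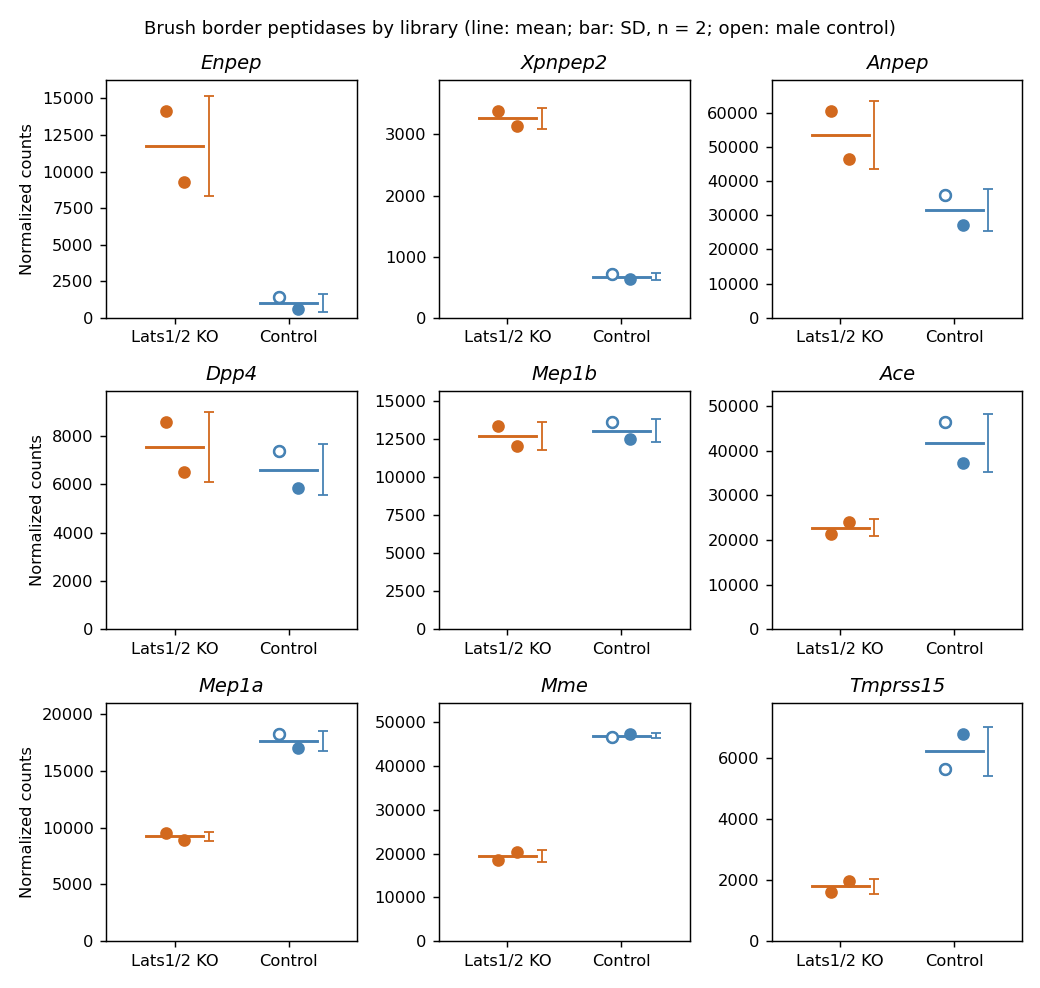
Normalized counts of each peptidase in each library, from 0 upward on a linear axis, with Lats1/2 KO on the left and Control on the right of each panel (line, mean; bar, SD, n = 2; open point, the male control). The groups are apart for Enpep, Xpnpep2, Anpep, Ace, Mep1a, Mme and Tmprss15, and overlap for Dpp4 and Mep1b.

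Among the enzymes that cut inside the chain, Mme and Mep1a fell and Mep1b did not pass the test. Mme, neprilysin, is a zinc endopeptidase that also degrades enkephalins and natriuretic peptides (ENSMUSG00000027820, chromosome 3, 63241537 to 63386030, plus strand). Mme had 18513 and 20452 normalized counts in Lats1/2 KO and 46644 and 47385 in Control. The controls agreed within 1.02-fold and both knockouts were well below them. The means were 19482 ± 1371 in Lats1/2 KO and 47015 ± 524 in Control (SD, n = 2 each), a 2.42-fold fall (log2 change -1.27 ± 0.09 SE, adjusted p = 0.000983).

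The meprins are zinc endopeptidases whose alpha and beta subunits are encoded by Mep1a and Mep1b and assemble into dimers and larger forms. The beta subunit carries the membrane anchor of the mature enzyme, and alpha is retained at the cell surface by pairing with it. Mep1a (ENSMUSG00000023914, chromosome 17, 43474324 to 43502812, minus strand) had 9519 and 8905 normalized counts in Lats1/2 KO and 18255 and 17019 in Control. The replicates agreed within 1.07-fold in each group, and the groups did not overlap. Mep1a averaged 9212 ± 434 in Lats1/2 KO and 17637 ± 874 in Control (SD, n = 2 each), a 1.91-fold fall (log2 change -0.94 ± 0.08 SE, adjusted p = 0.00145). Mep1b (ENSMUSG00000024313, chromosome 18, 21061923 to 21100199, plus strand) had 13355 and 12066 normalized counts in Lats1/2 KO and 13611 and 12517 in Control, so the groups overlapped. Its log2 change was -0.04 with a 95% interval of -0.25 to 0.17 (adjusted p = 0.758). Per kilobase of exon, the ratio of Mep1a to Mep1b was 0.542 and 0.561 in the Lats1/2 KO libraries and 1.02 and 1.03 in the Control libraries. On this per-kilobase scale the 2 subunit transcripts were near equal in both controls and not in either knockout. That near-equality depended on the annotated exon lengths, since Mep1a had more normalized counts than Mep1b in both controls. The log2 ratio was 0.90 apart between the groups, a difference that exon length does not alter. An exact two-sided permutation test of this ratio gave p = 0.333, the smallest that 2 libraries against 2 allow, among 3 ratios computed.

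Ace, angiotensin-converting enzyme, is a zinc peptidase with a pair of active domains that makes angiotensin II in the circulation and digests peptides at the brush border (ENSMUSG00000020681, chromosome 11, 105967945 to 105989964, plus strand). Ace had 21398 and 24150 normalized counts in Lats1/2 KO and 46354 and 37220 in Control. Both knockouts were below both controls, and the controls differed 1.25-fold. Means were 22774 ± 1945 in Lats1/2 KO and 41787 ± 6458 in Control (SD, n = 2 each), a 1.83-fold fall (log2 change -0.87 ± 0.13 SE, adjusted p = 0.00856). Without Lats1/2 KO replicate 1 the adjusted p was 0.061. Antisense transcripts share 5.58% of the exon bases of Ace and 3.67% of those of Dpp4, and the strand setting of the counting is not given in the sources used here.

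Tmprss15, enteropeptidase, fell most (ENSMUSG00000022857, chromosome 16, 78953008 to 79091097, minus strand). Tmprss15 had 1619 and 1966 normalized counts in Lats1/2 KO and 5649 and 6797 in Control. The knockouts were below the controls by far more than the 1.21-fold and 1.20-fold differences within the groups. The means were 1793 ± 245 in Lats1/2 KO and 6223 ± 812 in Control (SD, n = 2 each), a 3.47-fold fall (log2 change -1.80 ± 0.13 SE, adjusted p = 0.00111). Without the male control the fall was 3.81-fold. RNA of pancreatic acinar cells, which make trypsinogen, was read from 9 marker genes with a row. Their summed level was 2072 and 15313 normalized counts in Lats1/2 KO and 14218 and 10691 in Control, and 0 of 8 tested were called, so Lats1/2 KO replicate 1 held far less pancreatic RNA than the other 3 libraries. The part of such pancreatic RNA in these results was not tested.

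Levels of different genes were compared per kilobase of annotated exon. In Lats1/2 KO the order was Anpep (12934 ± 2413 normalized counts per kb, SD, n = 2), Mep1b (4842 ± 347), Ace (4308 ± 368), Mep1a (2669 ± 126), Enpep (2492 ± 729), Mme (1688 ± 119), Dpp4 (1195 ± 228), Xpnpep2 (669 ± 36.2) and Tmprss15 (429 ± 58.7). Mep1a and Enpep overlapped there. In Control the order was Ace (7904 ± 1222), Anpep (7622 ± 1504), Mep1a (5109 ± 253), Mep1b (4977 ± 295), Mme (4073 ± 45.4), Tmprss15 (1488 ± 194), Dpp4 (1047 ± 169), Enpep (215 ± 128) and Xpnpep2 (138 ± 12.1). Ace and Anpep overlapped in the controls, as did Mep1a and Mep1b and, at the low end, Enpep and Xpnpep2. Exon length counts every annotated exon, which lowers the level given for Mme, whose annotation spans 11542 exon bases.

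Per kilobase of exon, the 9 genes summed to 33581 and 28867 normalized counts in Lats1/2 KO and 34937 and 30209 in Control. These sums overlapped between the groups. Without division by exon length the sums were 151047 and 132933 in Lats1/2 KO and 175949 and 155135 in Control. On that scale both knockouts lay below both controls, so the comparison of sums depended on the exon lengths. The make-up of the sum per kb differed. Anpep supplied 43.6% and 38.9% of the sum in the Lats1/2 KO libraries and 24.9% and 21.7% in the Control libraries. Enpep supplied 8.95% and 6.85% in Lats1/2 KO and 0.876% and 0.412% in Control. The 4 enzymes that act at the N-terminal end, Anpep, Enpep, Xpnpep2 and Dpp4, together made up 58.7% and 51.5% in Lats1/2 KO and 29.5% and 25.6% in Control. The 5 others, Ace, Mme, Mep1a, Mep1b and Tmprss15, made up 41.3% and 48.5% in Lats1/2 KO and 70.5% and 74.4% in Control. This division follows the site of action but was made after the values were seen, so the shares are a description. Within the aminopeptidases the ratio of Enpep to Anpep per kilobase was 0.205 and 0.176 in Lats1/2 KO and 0.0352 and 0.019 in Control (exact permutation p = 0.333, the smallest possible).

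**Figure D3:**
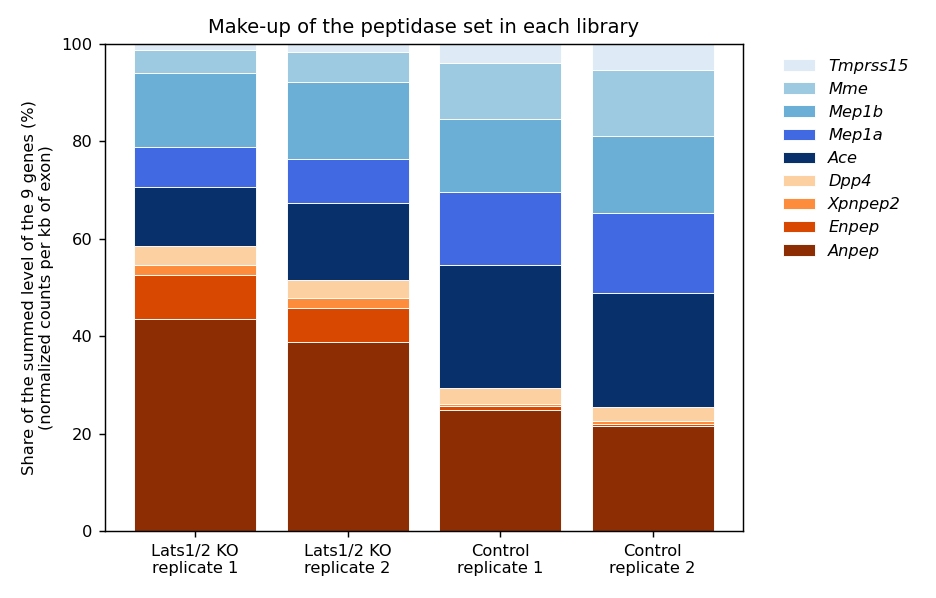
Share in percent of each gene in the summed level of the 9 peptidases, in normalized counts per kb of exon, for each library. The orange and brown blocks (Anpep, Enpep, Xpnpep2 and Dpp4) fill 58.7% and 51.5% of the Lats1/2 KO bars and 29.5% and 25.6% of the Control bars.

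Markers of the tissue were read beside these changes. Over all tested genes 27.5% were called, 15.2% higher and 12.3% lower. The summed level of 9 epithelial genes was 190048 and 194322 normalized counts in Lats1/2 KO and 149669 and 137243 in Control. Of these 3 rose, all keratins (Krt8, Krt18 and Krt19), and the other 6 were not called, with log2 changes of -0.04 for Epcam and 0.06 for Vil1, which builds the microvillus core. The summed level of the endothelial list, cells that also express Ace, was 4385 and 4017 normalized counts in Lats1/2 KO and 4837 and 5604 in Control, with 1 of 8 genes lower and 0 higher. For mural cells, which express Anpep and Enpep, the sums were 3008 and 2917 in Lats1/2 KO and 3687 and 3892 in Control (2 of 6 lower, 0 higher). Fibroblast sums were 10334 and 8950 in Lats1/2 KO and 12727 and 11597 in Control (2 of 6 lower, 0 higher), and smooth muscle sums were 19767 and 14590 in Lats1/2 KO and 18767 and 19940 in Control (0 of 5 called). Myeloid sums were 7298 and 9970 in Lats1/2 KO and 13107 and 12872 in Control (2 of 6 lower, 0 higher), and lymphocyte sums were 165 and 209 in Lats1/2 KO and 320 and 328 in Control (1 of 4 tested lower, 0 higher). No gene of these lists with a row was at 0 in all libraries. The part of any of these cell types in the rises of Anpep and Enpep or the falls of Ace and Mme was not tested. Among markers of gut position, 1 of 5 proximal genes was lower and 0 higher. Of the distal genes, 1 of 3 tested was higher and 2 lower. Fabp6 and Slc10a2, also on the distal list, had at most 6.21 normalized counts in any library and were not tested. The position of the sampled gut was not tested.

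Of 8 other cell-surface peptidases tested, 1 rose and 1 fell (25% called, median log2 change -0.07). Over all tested genes 27.5% were called, 15.2% higher and 12.3% lower. Naaladl1, a relative of the glutamate carboxypeptidase Folh1, rose and had 2521 and 2892 normalized counts in Lats1/2 KO and 239 and 751 in Control, a log2 change of 2.67 ± 0.50 (SE, adjusted p = 0.016). Naaladl1 was not called without Lats1/2 KO replicate 1 or without Lats1/2 KO replicate 2. Of 12 cytosolic peptidases, which finish the digestion of absorbed peptides, 1 rose and 2 fell (25% called). Their median was -0.01, or -0.06 to 0.04 with 1 library left out. Both lists were near the share called over all tested genes. Cndp2, a dipeptidase, rose (log2 change 0.59, adjusted p = 0.0193), and Acy3, an aminoacylase, and Pepd, which cleaves dipeptides ending in proline, fell (-0.65 and -0.29). Without either knockout library 1 cytosolic gene, Acy3, was called, and without Control replicate 2 there were 4 lower.

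Transporters for the products of these peptidases, 13 genes, had 2 that rose and 5 that fell (median -0.34). That is 53.8% called, beside 27.5% of all tested genes. The median of the transporters was -0.09 without Lats1/2 KO replicate 1 and -0.08 without Control replicate 1, the male. The peptide transporter Slc15a1 had a log2 change of 0.07 (adjusted p = 0.668). Slc6a19, the apical carrier of neutral amino acids, had 20156 and 22023 normalized counts in Lats1/2 KO and 18511 and 21840 in Control, and these overlapped (log2 change 0.07, adjusted p = 0.674). Slc7a8, Slc7a7 and Slc3a2, which form the basolateral exchangers for neutral and cationic amino acids, had log2 changes of -0.55, -0.36 and -0.37, and Slc3a1, part of the apical cystine carrier, -0.45 (adjusted p 0.00584 to 0.02). Slc6a20a, an imino acid transporter named after its values were seen, rose (log2 change 1.02). Slc3a1, Slc3a2 and Slc7a7 lost their calls without either knockout library, and without Lats1/2 KO replicate 1 none of the 13 was called by limma. Other brush border enzymes included sugar- and lipid-digesting ones and were partly shared with the surface peptidases. Of 11 tested, 2 rose and 5 fell (63.6% called, median -0.59). The rises were Mgam and Naaladl1, and Naaladl1 is the same rise as that counted among the surface peptidases above. Mgam, a starch-digesting glucosidase, rose (log2 change 1.01), and Treh, Sis and Enpp7, which digest trehalose, sucrose and sphingomyelin, fell (-3.78, -1.41 and -1.07). Treh was low, at 4.63 and 6.33 normalized counts in Lats1/2 KO and 66.2 and 115 in Control. The falls numbered 3 without Lats1/2 KO replicate 1.

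**Figure D4:**
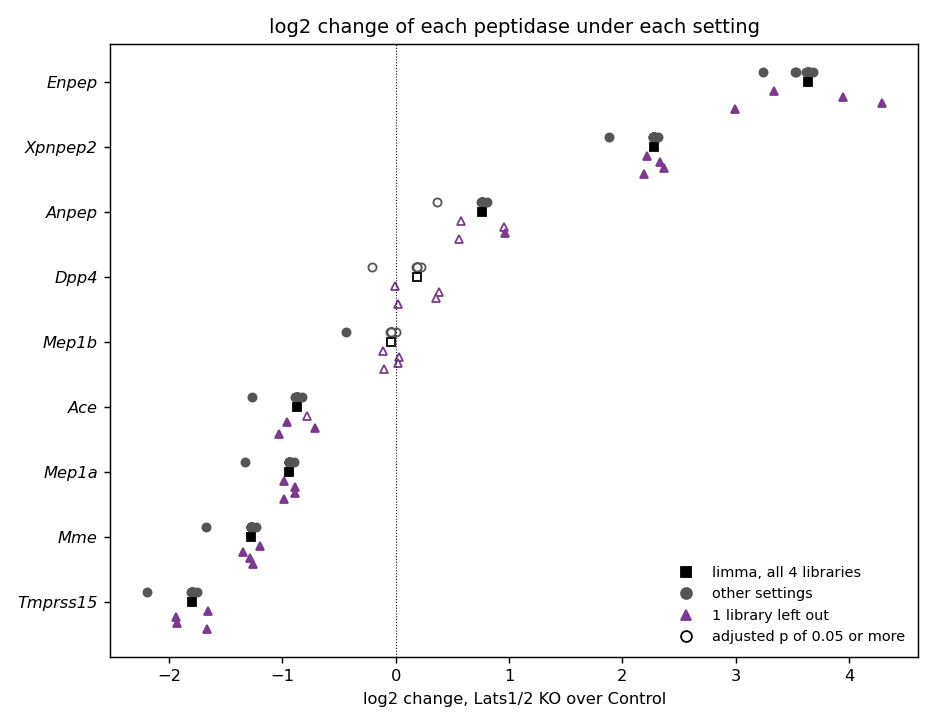
log2 change of each peptidase, Lats1/2 KO over Control, with all 4 libraries (squares), with other settings (circles) and with 1 library left out (triangles), open where the adjusted p was 0.05 or more. The points of Xpnpep2, Enpep, Mme, Mep1a and Tmprss15 are all filled, and those of Dpp4 and Mep1b lie on both sides of 0.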

How the data were processed

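RNA-seq of whole small intestine at postnatal day 8 was analysed for 2 Lats1/2 KO and 2 Control libraries. Per the submitters' processing notes, STAR, featureCounts, DESeq2 and the build GRCm38 were used; the sources used here do not give versions, strand setting or how multi-mapping reads were handled. Per the file headers, the deposited table has normalized counts, a signal that the authors made by dividing counts by 1 factor per library. The authors also deposited a log2 fold change, its linear ratio and an adjusted p-value. In each library 100% of values were whole multiples of the smallest value (tolerance 0.001 reads), which gave back the reads. The number of per-sample columns not used was 0.

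Testing used limma-trend (limma 3.58.1, R 4.3.3) on log2(normalized count + 1). It covered 16415 genes that reached 10 in 2 or more libraries, with Benjamini-Hochberg adjustment over all of them and a threshold of 0.05. Fold changes are on that scale and understate low genes. The spread had 2 residual and 3.53 prior degrees of freedom. No label ties the samples to separate animals, so the p-values reflect only the spread among these samples. By the sex-linked genes the controls came from different animals, and for the Lats1/2 KO libraries this is not known. Replicates differed by more than sampling noise (chi-square per degree of freedom 14.9 in Lats1/2 KO and 22.6 in Control). The scripts were tested on simulated data. Alternatives, listed in the closing section, included edgeR 4.0.16 and DESeq2 1.42.0 on the recovered reads and leaving out each library. Gene positions and exon lengths are from GENCODE M21 (GRCm38), promoters from RefSeq.

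The members, lists and tests were chosen with earlier results of these data known. Named were all members, the targeted genes, Slc6a19, and up to 4 genes per list by adjusted p; Epcam, Vil1, Slc15a1, Slc6a20a, Fabp6 and Slc10a2 were picked once their values were known. The closest relative by protein identity, also in the rule, was not computed here. A gene that the rule named is not reported here.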

Additional observations from a re-analysis of the deposited data

How the results depend on the processing

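Xpnpep2, Enpep, Mme and Tmprss15 kept their direction and call in every alternative run. Mep1a lost its call only where at least a 2-fold change was also required, a rule that left 2 members higher and 2 lower, and 1430 genes called, 694 higher and 736 lower. Anpep and Ace lost theirs under that rule and as given above, and with no filter 2 members were higher. With 1 library left out, 2 to 3 members were higher and 3 to 4 lower, and over all genes 1869 to 3754 were called, 908 to 2171 higher and 864 to 1612 lower. Over the 29011 genes tested with no filter 1318 were called lower. Scaling to the epithelial markers moved the median of all genes to -0.39 and called 7379 genes, 796 higher and 6583 lower, left 2 members higher and 5 lower, took the call from Anpep (adjusted p = 0.108), turned Dpp4 to -0.21, and called Mep1b lower at -0.44, close to the shift itself. Without the keratins, an alternative chosen after seeing the data, the median was 0.04, with 2960 genes called, 1630 higher and 1330 lower (the cause of these shifts was not tested), and the 7 member calls held. With 1 library left out, the log2 change of Dpp4 ranged from -0.0083 to 0.38 and that of Mep1b from -0.11 to 0.033. Pseudocounts of 0.5 and 5, the stricter filter, TMM and library size scaling, edgeR, DESeq2 and limma-voom changed no member's call. No paired analysis was possible because the columns carry no replicate numbers of the labels.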

Other observations

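Relatives of the peptidases by family were also read from the same fit. Of 25 tested genes in this list 5 rose and 6 fell (median log2 change -0.23, or -0.12 without Lats1/2 KO replicate 1), beside 27.5% of all tested genes called. The serine proteases of the Tmprss15 kind went both ways. Tmprss6, which restrains hepcidin signalling in liver, had 12.0 and 44.3 normalized counts in Lats1/2 KO and 387 and 449 in Control, a 17.2-fold fall (log2 change -4.11 ± 0.57 SE, adjusted p = 0.0063). Tmprss4 fell 1.68-fold (adjusted p = 0.00319). St14, the epithelial protease matriptase, had 8125 and 8316 normalized counts in Lats1/2 KO and 6256 and 6147 in Control (log2 change 0.41, adjusted p = 0.00807). Tmprss4 and Tmprss6 kept their calls with any 1 library left out, while no relative was called higher without Lats1/2 KO replicate 1 or without Lats1/2 KO replicate 2. Without the male control 3 relatives were higher and 4 lower.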
